A study of Canis lupus familiaris with 22 samples.

Results

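The Toll-like receptors were followed in blood RNA of dogs with canine atopic dermatitis (cAD) before and after allergen-specific immunotherapy (ASIT), and in blood RNA of healthy dogs. Members were all non-control probes of a canine oligonucleotide microarray whose gene name in the scanner output was TLR1 to TLR10. This gave 13 of 43603 probes, for 9 of the 10 genes looked for. No probe was named TLR6, and TLR6 was not analysed here. The receptors were divided by where they meet their ligands, with 8 probes for the cell surface receptors TLR1, TLR2, TLR4, TLR5 and TLR10 and 5 probes for the endosomal receptors TLR3, TLR7, TLR8 and TLR9.

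Each of the 22 arrays compared RNA of 1 dog (Cy5) with a common reference pooled from 13 other healthy dogs (Cy3), with no dye swap. The groups were 8 healthy control dogs (ctrl), 7 dogs with cAD sampled before therapy (0) and the same 7 dogs after 6 months of ASIT (6 months). All were adult dogs of several breeds, none with an engineered genotype. The study describes the cAD dogs as privately owned and the ctrl dogs as blood bank donors. Most cAD dogs were female and most ctrl dogs male, and the mix of breeds differed, so sex and breed were not balanced between cAD and ctrl. The treated dogs received subcutaneous injections of extracts of the allergens to which each dog was sensitized. No cAD dogs were followed for the same time without therapy, so the therapy and the passage of time cannot be told apart. GEO's labels name venous whole blood and the study's methods name peripheral blood nuclear cells as the RNA source. Transcripts of both leukocytes and the erythroid lineage were measured. In RNA of mixed cells, fewer cells of a type and less RNA per cell cannot be told apart.

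Toll-like receptors are membrane proteins of innate immunity that bind conserved microbial molecules through leucine-rich repeats and signal through a cytoplasmic TIR domain. Surface receptors recognize bacterial lipoproteins, lipopolysaccharide or flagellin, while endosomal receptors recognize nucleic acids. Their signals run through the adaptors MYD88 and TICAM1 to kinases, ubiquitin ligases and the transcription factors of the NF-kappa B and interferon regulatory families. In blood they are carried mainly by myeloid cells, B cells and dendritic cells.

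The base composition of the probes differed widely, and the probes of TLR9 and TLR5, around which the results below turn, were the richest in G and C. The 60-base probes of these genes are shown 5′ to 3′ beside the TLR8 probe, with G and C in capitals and coordinates of the build CanFam3.1 named in the scanner output.
TLR9, chr20:37546736-37546795: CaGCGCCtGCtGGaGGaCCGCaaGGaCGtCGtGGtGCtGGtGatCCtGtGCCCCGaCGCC
TLR5, chr38:23705247-23705306: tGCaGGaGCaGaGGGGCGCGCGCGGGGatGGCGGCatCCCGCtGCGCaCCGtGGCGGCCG
TLR8, chrX:9399819-9399878: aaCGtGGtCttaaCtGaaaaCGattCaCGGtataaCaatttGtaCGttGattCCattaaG
G and C made up 70% of the TLR9 probe, 80% of the TLR5 probe and 35% of the TLR8 probe. The other 10 probes held 35% to 45%, and the median over all tested probes was 45%. The positions are those listed with the probes. Gene annotation of that build was not used here, so exons and UTRs were not assigned.

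Values are log2 of the deposited ratio of dog to reference, so a value near 0 on a bright spot is the level of the pool. A ratio of exactly 0 stood on 1.22% to 3.35% of spots of ctrl arrays and on up to 16.6% before and 23.4% after ASIT, and it need not be a measured level. Such values were kept as deposited in all fits. The scanner software flags signals that stand clear of background, and a probe entered the test with this flag in Cy5 on 7 or more arrays. This held for 12 of the 13 probes. Of these, 11 were well above background in Cy5 on all 22 arrays, and the TLR3 probe on 16. The TLR5 probe passed on 3 arrays and was not tested with the others. Across all probes, 83.6% to 92.2% were well above background in Cy5 on ctrl arrays, against 53.3% to 87.5% on arrays before ASIT and 57.1% to 81.6% after ASIT. All ctrl arrays lay on 2 slides scanned on 1 day, apart from every cAD array, so that cAD and slide or scan cannot be told apart in either comparison with ctrl.

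No Toll-like receptor probe was called in any comparison. In 0 vs. ctrl, 0 of 12 tested probes had an adjusted p under 0.05 by limma, where 0.0418% of all 38286 tested probes did. The lowest adjusted p among the 12 was 0.728. At an unadjusted limma p under 0.05 the count was also 0 of 12, against 11.7% of all tested probes. For 6 months vs. ctrl, 0 of 12 receptor probes and 0% of all tested probes were called by limma, and the unadjusted counts were 0 of 12 against 7.2%. In 0 vs. 6 months, 0 of 12 and again 0% were called by limma, with unadjusted counts of 0 of 12 against 5.96%. The one-way test with Tukey's test that the methods name also called 0 of 12 in each comparison, as it called 0 of all 38286 tested probes.

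**Figure D1:**
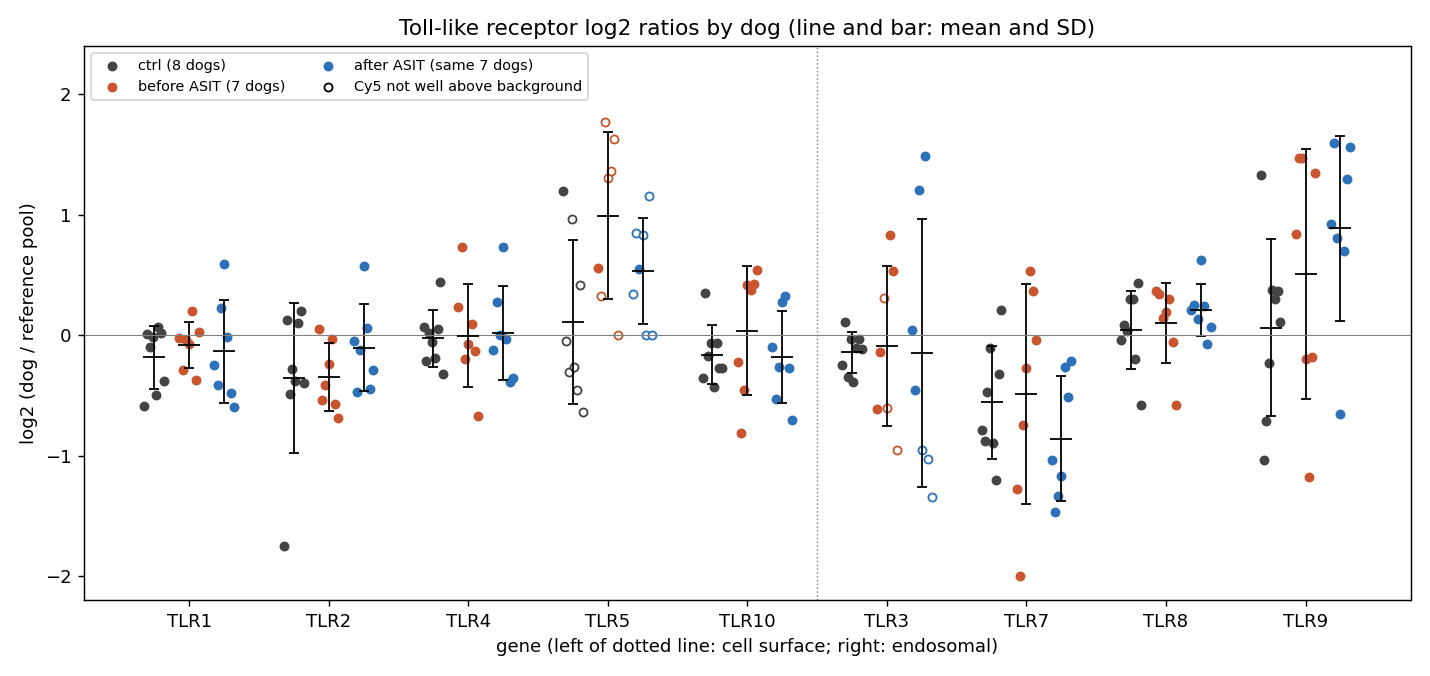
Log2 ratio of dog to reference pool (vertical axis) for the main probe of each of the 9 receptor genes (horizontal axis) in 8 ctrl dogs and in 7 dogs before and after ASIT; points are dogs, lines and bars are means and SD, and open points are arrays where Cy5 was not well above background. The 3 groups overlap for every gene, TLR9 spreads most in the dogs before ASIT and TLR3 in the dogs after ASIT, and most TLR5 points are open.

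Where a gene had several probes, the one well above background on most arrays, and then the brightest, was taken as its main probe. Over the main probes of the 8 tested genes, the median log2 difference in 0 vs. ctrl was 0.06 for both the 4 surface and the 4 endosomal genes, beside −0.02 for all tested probes. All 8 differences were above 0, from 0.01 to 0.45, while 47.6% of all tested probes were above 0. Over all 12 receptor probes, 10 were above 0, with 5 of 7 surface probes and 5 of 5 endosomal probes, and the 2 below 0 were the dimmer TLR2 probes. For 6 months vs. ctrl the median was 0.05 for the surface genes and 0.08 for the endosomal genes, with 3 of 4 and 2 of 4 above 0, and the endosomal genes ranged from −0.30 to 0.83. In 0 vs. 6 months the medians were 0.02 and −0.02, with 2 of 4 genes above 0 in each class. The comparisons with ctrl share the same 8 ctrl arrays and are therefore not independent of each other.

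**Figure D2:**
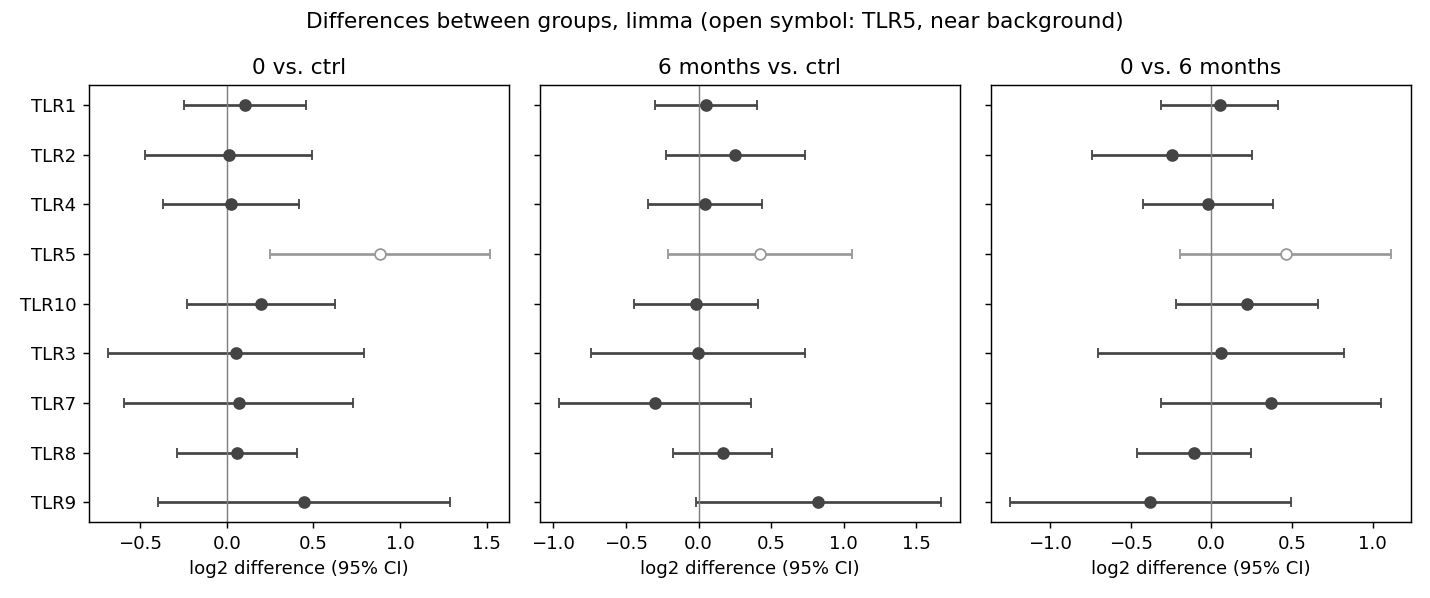
Log2 difference with its 95% confidence interval from limma (horizontal axis) for the main probe of each receptor gene (vertical axis) in 0 vs. ctrl, 6 months vs. ctrl and 0 vs. 6 months; the open symbol is TLR5, fitted without the filter on dim probes. Of the tested genes none has an interval that leaves out 0, and the TLR9 interval in 6 months vs. ctrl, from −0.02 to 1.67, reaches furthest from it. The intervals of 0 vs. 6 months do not use the pairing of dogs.

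Among the surface receptors, TLR1, which pairs with TLR2 to bind triacylated lipopeptides, ranged in ctrl from −0.59 to 0.07 with a median of −0.06. Before ASIT it ranged from −0.37 to 0.20 with a median of −0.04, and after ASIT from −0.60 to 0.59 with a median of −0.25. The difference was 0.10 in 0 vs. ctrl, with a 95% confidence interval from −0.25 to 0.45, and 0.05 in 6 months vs. ctrl, with an interval from −0.30 to 0.40. The TLR1 groups overlapped almost completely.

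TLR2, the lipoprotein receptor that forms dimers with other surface receptors, had 3 probes within the same stretch of chromosome 15. The brightest lies at chr15:51465303-51465359. Its ctrl values ran from −1.75 to 0.20 with a median of −0.33, its values before ASIT from −0.69 to 0.05 with a median of −0.42, and its values after ASIT from −0.48 to 0.58 with a median of −0.12. A single ctrl dog, ctrl 1, carried the lowest value, and the next ctrl dog stood at −0.49. The same dog was also lowest among ctrl on the other TLR2 probes, at −1.31 and −1.01. The difference was 0.01 (SE 0.23) in 0 vs. ctrl and 0.25 (SE 0.23) in 6 months vs. ctrl. The other TLR2 probes gave −0.19 (SE 0.25) and −0.01 (SE 0.24) in 0 vs. ctrl, and 0.02 (SE 0.25) and 0.09 (SE 0.24) for 6 months vs. ctrl. Without ctrl 1 the differences of the brightest probe became −0.19 and 0.05, with limma adjusted p of 0.708 and 0.955.

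The brightest TLR2 probe was lower before than after ASIT in 6 of 7 dogs. The difference of 0 vs. 6 months was −0.24, with a confidence interval from −0.74 to 0.25 from the fit of 3 groups, which does not use the pairing of dogs. An exact sign-flip test within dogs gave p = 0.0625, where 7 dogs allow no p under 0.0156. On each of the other TLR2 probes 4 of 7 dogs were lower before ASIT, with exact p of 0.188 and 0.688. The 3 TLR2 probes followed each other from dog to dog. Over 15 dogs (8 ctrl and 7 before ASIT, group means removed) Pearson's r was 0.922 (permutation p = 6e-05), 0.775 (permutation p = 8e-04) and 0.872 (permutation p = 3e-05), and Spearman's rho was 0.739, 0.618 and 0.807 (permutation p = 0.00225, 0.0161 and 0.00056). Adjusted over the 5 pairs of probes of 1 gene, all Pearson p for TLR2 were at or below 0.001 and the Spearman p ran from 0.0028 to 0.0201. Without the 2 dogs farthest from the median, r was 0.803, 0.536 and 0.773.

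TLR4, the lipopolysaccharide receptor, ranged in ctrl from −0.32 to 0.44 with a median of −0.02. Its values ran from −0.67 to 0.73 with a median of −0.08 before ASIT, and from −0.39 to 0.73 with a median of −0.03 after ASIT. Its differences were 0.02 (SE 0.19) in 0 vs. ctrl, 0.04 (SE 0.19) for 6 months vs. ctrl and −0.02 (SE 0.20) for 0 vs. 6 months. A second TLR4 probe, printed on 5 spots per array, gave 0.06, 0.02 and 0.04. The pair of TLR4 probes tracked each other over 15 dogs with Pearson's r = 0.883 (permutation p = 5e-05, adjusted over the 5 probe pairs 1e-04) and Spearman's rho = 0.764 (permutation p = 0.00127, adjusted 0.00318), and r was 0.715 without the 2 dogs farthest from the median. The TLR4 groups overlapped, and the 95% confidence interval of the difference in 0 vs. ctrl ran from −0.37 to 0.42.

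TLR10, a surface receptor related to TLR1, ranged in ctrl from −0.43 to 0.35 with a median of −0.22. Before ASIT 4 dogs lay between 0.37 and 0.54 and the other 3 between −0.82 and −0.22. After ASIT the values ran from −0.70 to 0.33 with a median of −0.27. The groups overlapped, the difference being 0.20 (SE 0.21) in 0 vs. ctrl, −0.02 (SE 0.21) for 6 months vs. ctrl and 0.22 (SE 0.21) for 0 vs. 6 months. All 3 dogs with negative TLR10 values before ASIT were hybridized on the same slides before and after ASIT, and all 3 were higher after, while the other 4 were lower after.

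TLR5, the flagellin receptor, was the only member with an exact permutation p under 0.05. In Cy5 it cleared background on 1 array of each group, and in Cy3 on none of the 22 arrays. In ctrl it ranged from −0.64 to 1.20 with a median of −0.16, before ASIT from 0 to 1.77 with a median of 1.31, and after ASIT from 0 to 1.15 with a median of 0.55. The deposited ratio was exactly 0 on 1 array before and 2 arrays after ASIT, where neither channel cleared background, and these zeros enter the ranges above and the differences and tests that follow. The difference in 0 vs. ctrl was 0.88 (SE 0.31), with an exact 2-sided permutation p of 0.0303 unadjusted for the 9 genes and 3 comparisons examined. With no filter on dim probes the limma adjusted p over all 43603 probes was 0.225. It was 0.42 (SE 0.31, exact p = 0.178) for 6 months vs. ctrl and 0.46 (SE 0.32, exact p = 0.164) for 0 vs. 6 months. With normexp background correction and an offset of 50 added to both channels, the group means of TLR5 were −0.01, 0.05 and 0.03. The mean Cy5 signal of this probe was 30.27, below that offset. Such an offset draws the ratios of so dim a probe toward 0, so the closer means do not bear on the level of TLR5. A level of TLR5 above background was not detectable on 19 of 22 arrays.

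Among the endosomal receptors, TLR3, which binds double-stranded RNA, had the dimmest of the tested probes (chr16:44618804-44618863, minus strand). In Cy5 it cleared background on all 8 ctrl arrays but on 4 of 7 before and 4 of 7 after ASIT. The ctrl values ran from −0.39 to 0.11 with a median of −0.11. Before ASIT they ran from −0.95 to 0.83 with a median of −0.14, and after ASIT from −1.34 to 1.48 with a median of −0.46. The SD thus differed between groups, being 0.17 in ctrl, 0.67 before and 1.11 after ASIT, while the means were within 0.06 of one another. With normexp background correction and an offset of 50 the SD was 0.0627 in ctrl, 0.0896 before and 0.15 after ASIT. That offset by itself narrows the spread of a probe this dim (mean Cy5 signal 68.62), so a smaller SD was fixed in advance. The lowest value in both cAD groups came from dog 7, whose Cy5 signal was not well above background on either array, and after ASIT neither channel was on the arrays of dogs 4, 6 and 7. The wider spread and the lower detection on the cAD arrays moved together, and the part of the one in the other was not tested.

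TLR7, a receptor for single-stranded RNA, had a pair of probes on chromosome X. On the brighter probe (chrX:9360402-9360461) ctrl dogs ranged from −1.20 to 0.21 with a median of −0.63, dogs before ASIT from −1.997 to 0.54 with a median of −0.27, and dogs after ASIT from −1.46 to −0.21 with a median of −1.04. It was lower after than before ASIT in 5 of 7 dogs, the difference being 0.37 (SE 0.33) in 0 vs. 6 months, with an exact sign-flip p of 0.141. The second TLR7 probe (chrX:9359271-9359330) was also lower after ASIT in 5 of 7 dogs and gave 0.05 (SE 0.20) in the same comparison, with an exact sign-flip p of 0.734. The difference between the probes was not tested. Against ctrl, at 6 months the brighter probe gave −0.30 and the second gave 0.00, neither past a threshold.

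Over 15 dogs Pearson's r between the TLR7 probes was 0.515 (permutation p = 0.0486, adjusted over the 5 probe pairs 0.0486) and Spearman's rho was 0.479 (permutation p = 0.074, adjusted 0.074), with r = 0.573 without the 2 dogs farthest from the median. The spread within groups was 0.65 on the brighter probe and 0.37 on the second. Before ASIT alone r was 0.404 for the TLR7 pair and 0.337 for the loosest TLR2 pair, and whether the r of TLR7 differs from those of the other pairs was not tested.

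TLR8, the other receptor for single-stranded RNA, had the smallest SD pooled within groups of the main probes, at 0.30. In ctrl alone and before ASIT alone the SD of TLR1 was smaller. The TLR8 values ran from −0.58 to 0.44 with a median of 0.06 in ctrl, from −0.58 to 0.37 with a median of 0.19 before ASIT, and from −0.08 to 0.62 with a median of 0.21 after ASIT. The differences were 0.06 (SE 0.17) in 0 vs. ctrl, 0.16 (SE 0.17) for 6 months vs. ctrl and −0.11 (SE 0.17) for 0 vs. 6 months. No TLR8 difference exceeded its standard error.

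TLR9, the receptor for unmethylated CpG DNA, showed the largest differences of the tested genes and the largest SD pooled within groups. After ASIT alone TLR3 had the larger SD. TLR9 was read by a single probe, and whether that probe reports TLR9 transcript alone was not tested. In ctrl TLR9 ranged from −1.04 to 1.33 with a median of 0.20, before ASIT from −1.18 to 1.47 with a median of 0.84, and after ASIT from −0.66 to 1.59 with a median of 0.92. After ASIT 6 of 7 dogs lay between 0.70 and 1.59, and dog 4 stood apart at −0.66. The groups overlapped over most of their range. The ctrl dogs averaged 0.06 ± 0.73 (SD, n = 8), the dogs before ASIT 0.51 ± 1.04 (SD, n = 7) and the dogs after ASIT 0.89 ± 0.77 (SD, n = 7). The difference was 0.45 (SE 0.41, limma adjusted p = 0.728) in 0 vs. ctrl, 0.83 (SE 0.41, limma adjusted p = 0.681, unadjusted p = 0.0547) for 6 months vs. ctrl and −0.38 (SE 0.42, limma adjusted p = 0.934) for 0 vs. 6 months. The exact permutation p in 6 months vs. ctrl was 0.0556. Without dog 4 after ASIT this difference was 1.08, with a limma adjusted p of 0.252. The within-group SD of TLR9, 0.85, lay at the 94.1 percentile of all tested probes.

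**Figure D3:**
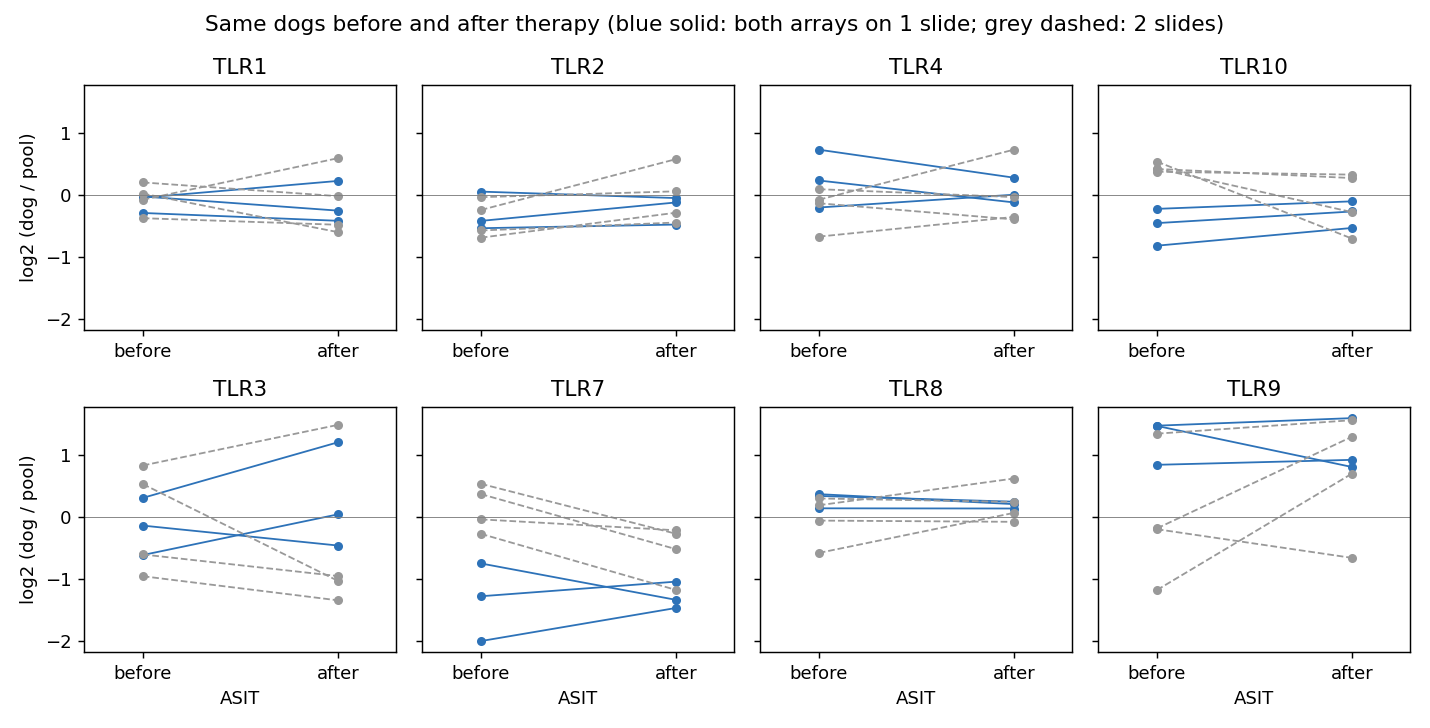
Log2 ratio of dog to reference pool (vertical axis) in the same 7 dogs before and after ASIT (horizontal axis), a panel for each of the 8 tested receptor genes; each line is a dog, solid blue where its 2 arrays lay on 1 slide (dogs 1 to 3) and dashed grey where they did not (dogs 4 to 7). Lines cross in both directions for most genes; the brightest TLR2 probe rises in 6 of 7 dogs, and TLR10 rises in the 3 dogs of the solid lines and falls in the 4 of the dashed lines.

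Dogs 1 to 3 were hybridized before and after ASIT on the same slides, and dogs 4 to 7 on different slides scanned on different days. Within slides the TLR10 difference of 0 vs. 6 months was −0.20, against 0.22 over all 7 dogs. For TLR7 it was −0.06 within slides against 0.37, and for TLR9 0.15 against −0.38. TLR1 and TLR2 kept their sign within slides, and the other 6 of the 8 differences between the time points changed sign. TLR2 was −0.084 within slides and −0.0703 with slide as a fixed block, against −0.24 over all 7 dogs. With that fixed block 5 of the 8 changed sign, TLR1 among them, while TLR2, TLR7 and TLR9 kept theirs. With slide or scan day as a block, 0 of 12 receptor probes and 0 of all 38286 tested probes were called in 0 vs. 6 months.

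**Figure D4:**
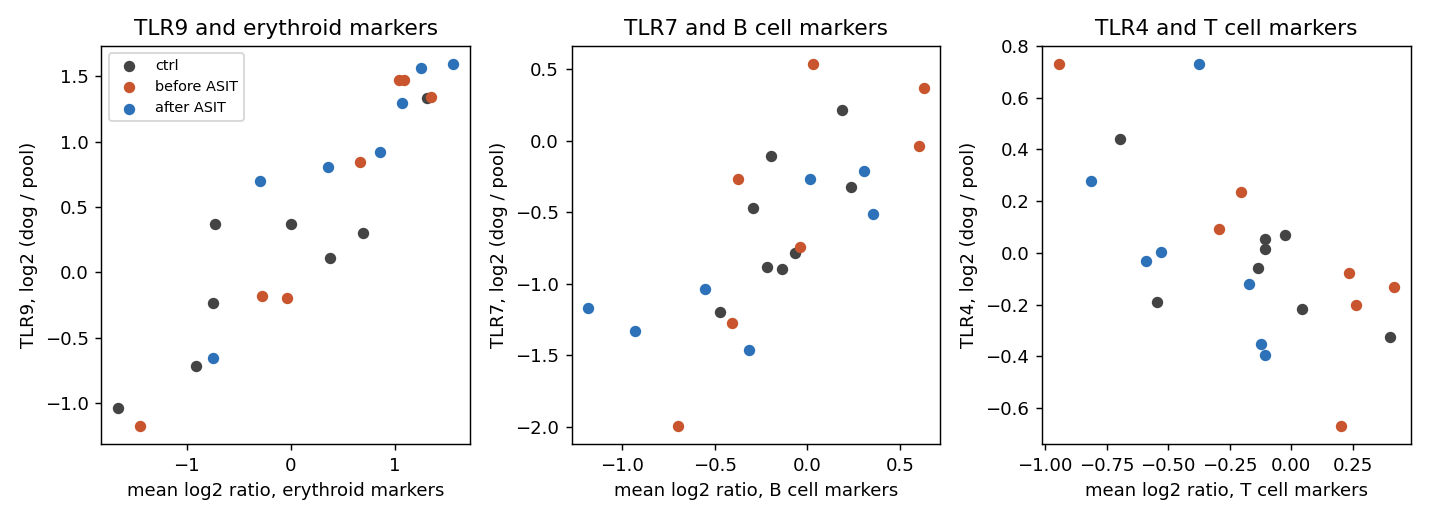
Log2 ratio of TLR9, TLR7 and TLR4 (vertical axes) against the mean log2 ratio of the erythroid, B cell and T cell marker lists (horizontal axes), a point per array in the colour of its group (8 ctrl, 7 before ASIT, 7 after ASIT). TLR9 rises with the erythroid markers in all 3 groups, TLR7 rises with the B cell markers and TLR4 falls with the T cell markers.

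The receptors were next set beside lists of genes that mark blood cell types, as a description of which dogs had high values. For 8 genes and 8 lists, 64 relations were computed over 15 dogs with group means removed and adjusted together by the Benjamini-Hochberg method. A list for plasmacytoid dendritic cells, with a probe for 1 of its 6 genes (TCF4), was not among the 8. TCF4 differed by −0.45 in 0 vs. ctrl (limma unadjusted p = 0.00694, adjusted 0.219) and by −0.43 in 6 months vs. ctrl (limma unadjusted p = 0.01, adjusted 0.669). How the receptors relate to such cells was not tested. TLR9 followed the erythroid list with Pearson's r = 0.919 (permutation p = 1e-05, the smallest that 100000 permutations can give, adjusted 0.00064) and Spearman's rho = 0.857 (permutation p = 0.00012, adjusted 0.00768), and r was 0.853 without the 2 dogs farthest from the median. Within groups r was 0.873 in ctrl, 0.98 before and 0.918 after ASIT. With the B cell list TLR9 had r = −0.0461 over the 15 dogs. TLR7 followed the B cell list with r = 0.749 (permutation p = 0.00136, adjusted 0.029) and rho = 0.793 (permutation p = 0.00077, adjusted 0.0246), r being 0.727 without the 2 farthest dogs and 0.67, 0.772 and 0.774 within the groups. In 0 vs. 6 months 5 of the 6 B cell markers had differences above 0, with a median of 0.29, against 48.6% of all tested probes. The part of B cells in the TLR7 values was not tested. TLR4 ran against the T cell list with r = −0.779 (permutation p = 0.00068, adjusted 0.0218) and rho = −0.754 (permutation p = 0.00186, adjusted 0.0298), r being −0.713 without the 2 farthest dogs and −0.664, −0.842 and −0.531 within the groups. TLR8 ran against the same T cell list by rank (rho = −0.754, permutation p = 0.00153, adjusted 0.0298), but its Pearson's r of −0.678 had an adjusted permutation p of 0.0852. No other relation had an adjusted permutation p under 0.05. The permutations exchanged dogs across slides, so these p do not allow for differences between slides. Before ASIT TLR7 was lowest on the slide of dogs 1 and 2 and highest on the slide of dogs 5 to 7.

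**Figure D5:**
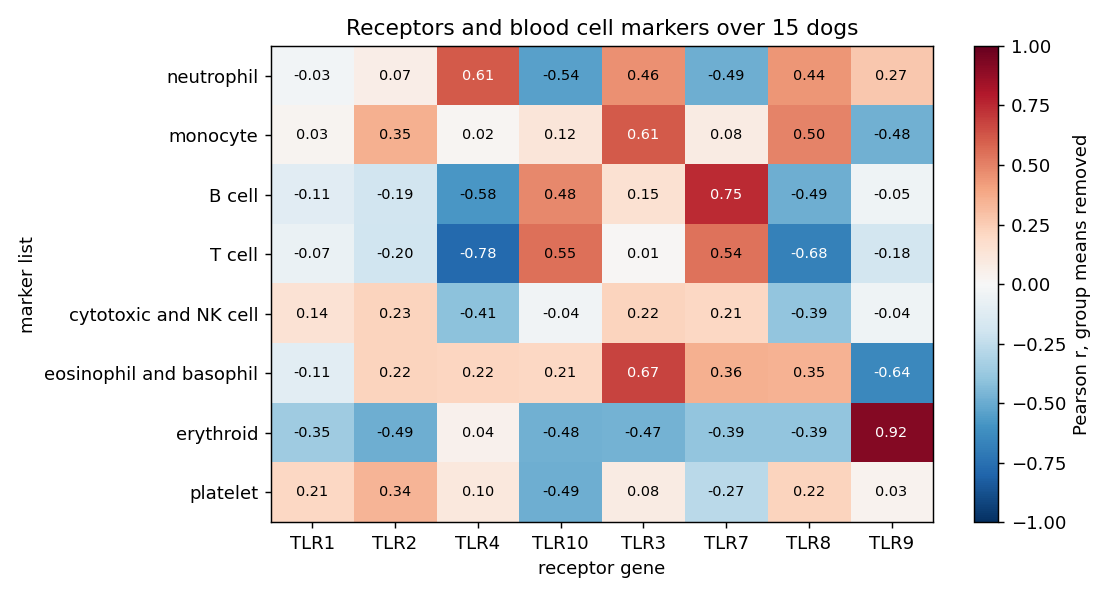
Pearson's r over 15 dogs (8 ctrl and 7 before ASIT, group means removed) between each of the 8 tested receptor genes (columns) and the mean of each of 8 blood cell marker lists (rows), red for positive and blue for negative. TLR9 with the erythroid list, at 0.92, is the darkest square, followed by TLR4 with the T cell list at −0.78 and TLR7 with the B cell list at 0.75.

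The erythroid list held 6 genes, of which 5 had a probe, and all 5 were well above background on all 22 arrays. Among them were ALAS2, the erythroid enzyme that starts heme synthesis, AHSP, the chaperone of alpha hemoglobin, SLC4A1, the anion exchanger of red cells, and EPB42 of the red cell membrane skeleton. Over the 22 arrays, with group means removed, TLR9 correlated with ALAS2 at r = 0.885, with AHSP at 0.828, with SLC4A1 at 0.89 and with EPB42 at 0.92. The mean of the list ranged from −1.66 to 1.31 with a median of −0.36 in ctrl, from −1.45 to 1.35 with a median of 0.67 before ASIT, and from −0.75 to 1.57 with a median of 0.86 after ASIT. The list was 0.55 higher in 0 vs. ctrl (exact permutation p = 0.297) and 0.79 higher in 6 months vs. ctrl (exact permutation p = 0.12), where TLR9 was 0.45 and 0.83 higher. With the mean of the erythroid markers as a covariate, the TLR9 difference was −0.01 in 0 vs. ctrl and 0.17 in 6 months vs. ctrl, with limma adjusted p of 0.992 and 0.873. The part of red cell transcripts in the TLR9 signal was not tested, so the TLR9 values are those of the probe and may not be those of the gene.

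TLR9 also stood apart from the other receptors in how many probes shared its pattern. Among the 20834 other probes well above background on all arrays, 741 correlated with TLR9 at r over 0.95 across the 22 arrays with group means removed, and 0 did so with TLR1, TLR2, TLR4, TLR7, TLR8 or TLR10. The named genes most like TLR9 were LIFR, GGT6 and NDRG1, each at r = 0.995. These genes correlated with the erythroid list at 0.897, 0.916 and 0.914. Their differences in 6 months vs. ctrl were 0.70, 0.74 and 0.84, against 0.83 for TLR9, and none was called. The GC content was 70% for the TLR9 probe, 45% for LIFR, 73.33% for GGT6 and 55% for NDRG1, and the probes of ALAS2, AHSP, SLC4A1 and EPB42 held 41.67% to 48.33%. Among the 61 tested probes with the same number of G and C as the TLR9 probe, the median log2 ratio of each array followed TLR9 at r = 0.918. That median had means of 0.09 in ctrl, 0.28 before and 0.28 after ASIT. Relative to it the TLR9 difference in 6 months vs. ctrl was 0.63, with a limma unadjusted p of 0.0273 and an adjusted p of 0.627.

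The other receptors had looser neighbours. TLR4 was most like LAPTM4A at r = 0.922, FCGR1A, the high-affinity IgG receptor of myeloid cells, at 0.901 and MOGAT1 at 0.887. TLR7 was most like MYBPC2 at 0.925, THSD1 at 0.923 and GH1 at 0.921. TLR10 was most like BOD1L1 at 0.91, TLR1 like VCPIP1 at 0.869, TLR8 like MNT at 0.859 and TLR2 like ZEB2, a transcription factor of myeloid and lymphoid cells, at 0.795. These values are over 22 arrays with group means removed, of which 14 come from the same 7 dogs, and describe shared patterns across these arrays.

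Among the 28 pairs of receptor genes, TLR1 and TLR2 varied together over 15 dogs with Pearson's r = 0.721 (permutation p = 0.00072, adjusted over the 28 pairs 0.0202) and Spearman's rho = 0.675 (permutation p = 0.00698, adjusted 0.104), and r was 0.654 without the 2 dogs farthest from the median. Within groups their r was 0.791 in ctrl, 0.546 before and 0.872 after ASIT. TLR4 and TLR8 followed with r = 0.688 (permutation p = 0.00457, adjusted 0.064) and rho = 0.579 (permutation p = 0.0252, adjusted 0.235), and r was 0.556 without the 2 farthest dogs. No pair passed the adjusted threshold by Spearman's rho.

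The signalling pathway around the receptors was read from 52 listed genes, of which 41 had a probe and 40 were tested. None was called by limma in any comparison. At an unadjusted limma p under 0.05 the counts were 1 higher and 0 lower in 0 vs. ctrl, 1 higher and 2 lower for 6 months vs. ctrl and 0 for 0 vs. 6 months, or 2.5%, 7.5% and 0% of the 40 genes against 11.7%, 7.2% and 5.96% of all tested probes. The median difference of the 40 genes was −0.03, 0.00 and 0.00. MYD88, the adaptor of nearly all Toll-like receptors, differed by −0.11 (SE 0.18), 0.09 (SE 0.18) and −0.20 (SE 0.19) in the order given. UNC93B1, which carries the endosomal receptors out of the endoplasmic reticulum, differed by 0.18, 0.14 and 0.04, and CD14, the co-receptor of TLR4, by −0.21, 0.00 and −0.20.

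SARM1, a TIR-domain adaptor that restrains TICAM1 signalling, was the gene below the unadjusted threshold in 0 vs. ctrl. The ctrl dogs averaged 0.35 ± 0.24 (SD, n = 8) and the dogs before ASIT 1.25 ± 0.74 (SD, n = 7), a difference of 0.90 (SE 0.27) with a limma adjusted p of 0.178. In Cy5 it cleared background on all 8 ctrl arrays but on 3 of 7 before and 4 of 7 after ASIT. Past that threshold in 6 months vs. ctrl, LY86, the partner of the TLR4 relative CD180, differed by −0.52 (SE 0.25), TRAF3, a ubiquitin ligase of the interferon branch, by −0.40 (SE 0.15), and TOLLIP, an inhibitor of the receptor kinases, by 0.39 (SE 0.17). All 3 had a limma adjusted p of 0.681.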

How the data were processed

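RNA was measured on 22 two-colour Agilent canine 4 × 44K arrays. The authors extracted the images with Agilent Feature Extraction (version 10.7.3.1 per the labels, 10.10.1.1 per the file headers), subtracted background and normalized dyes by Lowess. The deposited log10 ratios of Cy5 to Cy3, the deposited intensity columns and the deposited flags (other columns, whole numbers) were used here. Log10 ratios were converted to log2, 208 outlier spots and all control spots were left out, and spots of a probe were averaged. Probes flagged as clear of background in Cy5 on 7 or more arrays were fitted with limma 3.58.1 in R 4.3.3 as 3 groups, with Benjamini-Hochberg adjustment and a threshold of 0.05. Single probes were also tested by 2-sided exact permutation, and within dogs by exact sign flips. Scripts were tested on simulated data. Before and after ASIT samples came from the same animal per the labels, by the dog number in the source and health condition fields, since the titles after therapy all read Patient 1 with a therapy number; their deviations from group means correlated by −0.04 to 0.56 across probes. The precision is limited by the number of arrays. Members and lists were chosen with earlier results of these data known. The rule for members described in full, an exact p under 0.05 or groups that did not overlap, took TLR5; the other receptors were added, and the fuller accounts of TLR2, TLR3, TLR7, TLR9 and TLR10 were chosen after their values were seen. Alternatives were background correction (normexp with an offset of 50, then loess), Cy5 alone, the deposited value table, filters, blocks and left-out arrays. Cy5 alone is the Cy5 level after normexp, loess against Cy3 within arrays and quantile normalization between arrays. It thus still depends on Cy3. The erythroid covariate, the GC-matched scaling, scan day and the ratio of the deposited processed intensity of both channels were chosen after seeing the data. In the deposited value table the ctrl columns differed from the scanner ratios (r 0.711 to 0.844), for a reason not given in the sources used here. One gene of the erythroid list counts in the mean of the list but is not reported here by itself.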

Additional observations from a re-analysis of the deposited data

Results flagged for a closer look

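In 39 groups of 7 or 8 values, 4 held a sample whose gap to its nearest neighbour was large for the range of the group, where chance alone gives about 1 in 20 groups. On the brightest TLR2 probe ctrl 1 stood at −1.75 and the next ctrl dog at −0.49, and on another TLR2 probe the same dog stood at −1.31 with the next at −0.24. TLR9 stood at −0.66 in dog 4 after ASIT, with the next dog at 0.70. TLR10 stood at 0.35 in ctrl 2, with the next ctrl dog at −0.06.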

How the results depend on the processing

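No receptor probe was called under any alternative. Over all probes, the 16 calls in 0 vs. ctrl became 0 with normexp and loess, 4625 with Cy5 alone, 9 with the deposited value table, 20 with the ratio of processed signals, 216 with the erythroid mean as a covariate, and 0 with the strict filter, with slide as a random block and by the methods' test. The paper filtered probes otherwise, by flags and coefficient of variation, and reports differentially expressed transcripts by that test in each comparison. Leaving out 1 array gave 0 to 440, the highest without dog 1 before ASIT. The 0 calls of 6 months vs. ctrl became 857 with Cy5 alone, and 0 to 2 without 1 array. Those of 0 vs. 6 months became 1 with no filter, and 0 to 103 without 1 array, the highest without dog 1 before ASIT. With the dog as a paired block (replicate block) 0 probes were called in 0 vs. 6 months, 0 of them receptors, where the lowest adjusted p among receptors was 0.793, and no sign turned. The cause of these changes was not tested.

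Differences that turned sign all missed the threshold under every setting. TLR1 in 0 vs. 6 months became −0.0401 with normexp, −0.0084 with slide as a fixed block and −0.0308 with scan day. TLR2 with Cy5 alone gave −0.0527 and −0.0773 against ctrl before and after ASIT, and 0.0246 in 0 vs. 6 months. TLR3 gave −0.0037 in 0 vs. ctrl with slide as a random block. At 6 months against ctrl TLR3 gave 0.0842 with normexp, 0.0507 with Cy5 alone, 0.0827 with the random block, 0.0035 relative to probes of equal GC and 0.23 with the covariate. Between the time points it gave −0.0196 with normexp, −0.0864 with the random block, −0.64 with slide as a fixed block, −0.41 within slides, −0.63 with scan day and −0.0122 with the covariate. For TLR4 the same comparison gave 0.0356 with Cy5 alone, and 0.0172, 0.18, 0.20 and 0.13 with the random block, fixed block, within slides and scan day. TLR7 gave −0.0606 within slides. TLR8 gave 0.10 with Cy5 alone, 0.0869 with the fixed block, 0.0853 within slides and 0.006 with scan day. TLR9 gave 0.15 within slides and, in 0 vs. ctrl with the covariate, −0.0073. TLR10 at 6 months against ctrl gave 0.0403, 0.0457, 0.0081, 0.0021 and 0.18 with normexp, Cy5 alone, the random block, equal GC and the covariate, and between the time points −0.0222 with the fixed block and −0.20 within slides.

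Leaving out 1 array turned signs within these ranges. In 0 vs. ctrl TLR2 ran from −0.19 to 0.0905, TLR3 from −0.10 to 0.20, TLR4 from −0.0985 to 0.13, TLR7 from −0.10 to 0.32 and TLR8 from −0.03 to 0.17. At 6 months against ctrl TLR1 ran from −0.0702 to 0.13, TLR3 from −0.28 to 0.19, TLR4 from −0.0755 to 0.11 and TLR10 from −0.11 to 0.0658. Between the time points TLR1 ran from −0.0254 to 0.17, TLR3 from −0.14 to 0.33, TLR4 from −0.14 to 0.0992 and TLR8 from −0.15 to 0.0068. Without a sign change, leaving out 1 array also moved other differences by over 1.5 times. TLR1 in 0 vs. ctrl ran from 0.0454 to 0.15, TLR2 between the time points from −0.31 to −0.13, and at 6 months against ctrl TLR2 ran from 0.0541 to 0.33, TLR7 from −0.41 to −0.19 and TLR8 from 0.0763 to 0.22. TLR9 ran from 0.29 (without dog 2) to 0.73 (without dog 5) in 0 vs. ctrl, and from −0.64 (without dog 4 after ASIT) to −0.0972 (without dog 5 before ASIT) between the time points. TLR10 ran from 0.12 (without dog 7) to 0.34 (without dog 2) in 0 vs. ctrl and from 0.13 to 0.36 between the time points, and TLR7 from 0.20 (without dog 5 before ASIT) to 0.62 (without dog 2 before ASIT). TLR9 in 6 months vs. ctrl stayed above 0 from 0.17 to 1.08 under the alternatives run on single genes, which did not include the deposited value table or the filters. With the erythroid covariate TLR2 at 6 months against ctrl was 0.48, with a limma unadjusted p of 0.0329 and an adjusted p of 0.555. TLR5 is limited by signal at background.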
